A study of Mus musculus with 12 samples.

Results

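The 50 genes described here encode the subunits, activators and assembly factors of the mouse proteasome. They are the protein-coding genes whose symbols begin with Psma, Psmb, Psmc, Psmd, Psme, Psmf or Psmg, with -ps names left out, and they are 50 of the 45321 genes that had a matched transcript. By structure they fall into 8 subunits of the alpha ring, 7 constitutive and 4 immune or thymus subunits of the beta ring, 6 ATPases and 3 other subunits of the regulatory particle's base, 8 subunits of its lid, 3 chaperones of the regulatory particle, 4 chaperones of the core, and 6 activators or inhibitors. The remaining symbol, Psmc3ip, names a meiotic recombination factor that is no part of the proteasome.

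The proteasome cuts ubiquitin-tagged proteins into peptides inside a barrel of alpha and beta rings, and a regulatory particle of ATPases and lid subunits unfolds the substrate and removes its ubiquitin. Lymphocytes carry an immune form in which Psmb8, Psmb9 and Psmb10 take the places of the catalytic subunits Psmb5, Psmb6 and Psmb7, and in which the cap PA28 (Psme1 with Psme2) can replace the regulatory particle. Interferon gamma is known to raise the immune subunits, whereas the factor encoded by Nfe2l1 raises the constitutive genes when proteasome activity is short.

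RNA was sequenced from total CD4+ T cells of C57BL/6 spleens, isolated untouched, that is by removing other cells. CsA_PI cells received 1 µM cyclosporin A (CsA), an inhibitor of the phosphatase calcineurin, for 1 h and were then stimulated for 2 h with 10 nM PMA, which activates protein kinase C, and 1 µM ionomycin, which raises calcium. The ethanol_PI cells received the ethanol vehicle and the same stimulation, and CsA_US and ethanol_US cells received CsA or vehicle and stayed unstimulated. Each group had 3 libraries, made with SMART-seq, a PCR-amplified full-length cDNA method. The labels do not say whether the libraries came from separate mice, so p-values measure the spread between libraries, which may be technical. In bulk RNA, fewer cells of a type and less RNA per cell cannot be told apart.

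Libraries held 10523816 to 18468044 estimated counts, and with 0 counts a gene could still have had 0.162 to 0.285 CPM, depending on the library (3 counts, counting error only). All 8 T cell markers were detected. CsA_PI 2 stood apart from the other CsA_PI libraries, with Il2 at 2.59 CPM beside 25.4 and 23.3 CPM and 1759 to 2078 CPM in ethanol_PI, and results that rest on it are given with and without it. The 8 B cell markers summed to 2869 to 4599 CPM in CsA_PI, 2643 to 3967 CPM in ethanol_PI, 2278 to 3984 CPM in CsA_US and 2410 to 4443 CPM in ethanol_US, with replicate 2 the highest of each group, and none of them passed the test in any comparison. Myeloid and dendritic markers, of which 1 of 8 rose on stimulation in vehicle, summed to 59.6 to 195 CPM in CsA_PI, 49.9 to 186 CPM in ethanol_PI, 47.5 to 188 CPM in CsA_US and 49.1 to 189 CPM in ethanol_US, again with replicate 2 the highest of each group. The T cell markers, of which 4 rose and 3 fell on stimulation in vehicle, summed to 3202 to 4816 CPM in CsA_PI, 5598 to 7472 CPM in ethanol_PI, 3525 to 4175 CPM in CsA_US and 3170 to 4452 CPM in ethanol_US. The 8 CD8 and NK cell markers summed to 103 to 185 CPM in CsA_PI, 178 to 214 CPM in ethanol_PI, 118 to 128 CPM in CsA_US and 100.2 to 125 CPM in ethanol_US, with ethanol_PI above both unstimulated groups and CsA_PI 2, at 103 CPM, at the unstimulated level. Of them 1 rose and 2 fell on stimulation in vehicle, and 2 were higher and 1 lower with CsA in stimulated cells. The 8 erythroid and platelet markers summed to 43.1 to 132 CPM in CsA_PI, 34.9 to 105 CPM in ethanol_PI, 53.2 to 93.1 CPM in CsA_US and 38.6 to 107 CPM in ethanol_US, with no call in any comparison. The part of these markers in the results was not tested.

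Proteasome mRNA was abundant, and the summed level of the 50 genes per length overlapped between all 4 groups. It came to 10163 to 11965 TPM (transcript abundance corrected for length) in CsA_PI, 11443 to 11918 TPM in ethanol_PI, 10438 to 11829 TPM in CsA_US and 9881 to 13211 TPM in ethanol_US. In ethanol_US cells the immune catalytic subunit Psmb8 had the highest mean TPM of all 50, 778 ± 177 TPM (SD, n = 3). It was followed by the constitutive catalytic subunit Psmb6 at 704 ± 234 TPM, the alpha subunit Psma3 at 672 ± 103 TPM and the PA28 subunits Psme1 at 672 ± 113 TPM and Psme2 at 589 ± 143 TPM, and these neighbours in the order do not differ beyond their spread. In ethanol_PI cells Psme2 led with 1093 ± 107 TPM, then Psme1 with 975 ± 88.1 TPM and Psma3 with 871 ± 67.3 TPM, while Psmb8 stood at 206 ± 2.42 TPM. The core chaperones Psmg1 to Psmg4, which assemble the rings and leave, were between 21.4 and 37.7 TPM in ethanol_US. The nuclear activator Psme4 (PA200) was at 9.38 ± 2.94 TPM there, the thymus subunit Psmb11 at 0.324 ± 0.111 TPM and the testis alpha subunit Psma8 at 0.0779 ± 0.135 TPM. Psma8 did not pass the filter on low counts, so 49 of the 50 genes entered the tests.

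**Figure D1:**
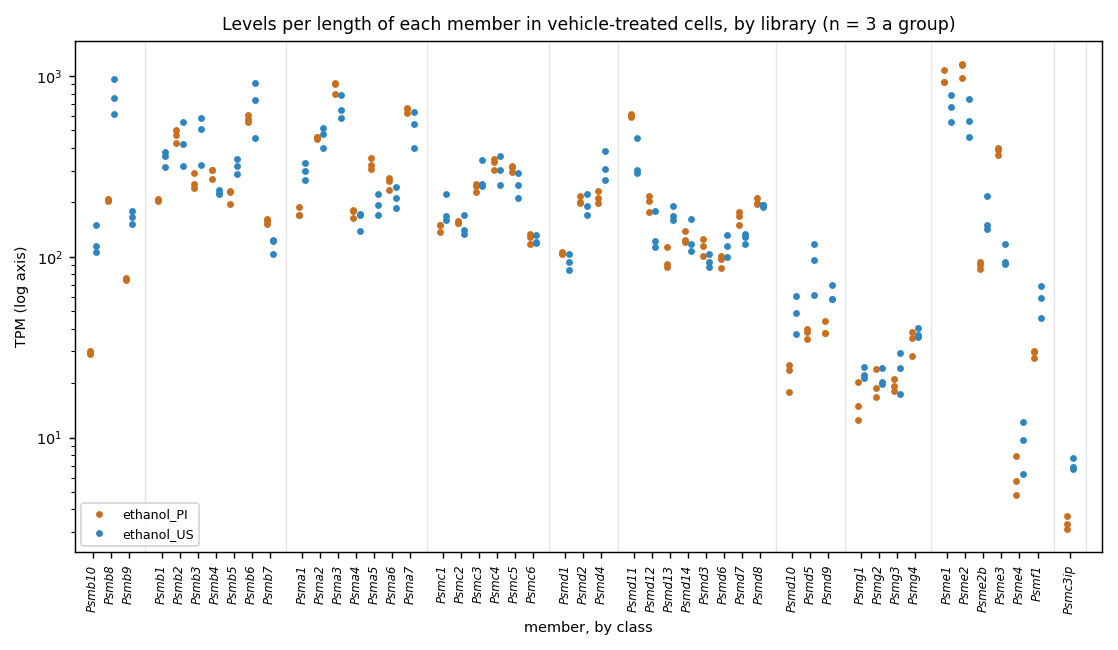
TPM per library (log axis) of each gene, grouped by structural class, for ethanol_PI (orange) and ethanol_US (blue), 3 libraries each; Psmb11 and Psma8, both under 1 TPM in these libraries, are left out. Psme1, Psme2 and Psme3 lie higher in ethanol_PI, and Psmb8, Psmb9 and Psmb10 lie lower there than in ethanol_US.

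The promoters of 4 genes that moved in opposite directions are shown as reference for the values that follow: Psmb8 and Psmb9, which fell on stimulation, and Psme2 and Psme3, which rose. Each window runs from 250 bases before the start site to 50 after it, on the gene's strand, taken from RefSeq on build GRCm38.p6. It lies at chr17:34197945-34198244 on the plus strand for Psmb8, chr17:34187281-34187580 on the minus strand for Psmb9, chr14:55591052-55591351 on the minus strand for Psme2 and chr11:101315963-101316262 on the plus strand for Psme3. Capitals mark letters that match the motifs GGAAA (the core that NFAT proteins bind), TTCNNNGAA (the interferon gamma-activated element) or CCAAT, on either strand. In the Psmb9 window the CCAAT match and the GGAAA match at the start site share bases.
Psmb8: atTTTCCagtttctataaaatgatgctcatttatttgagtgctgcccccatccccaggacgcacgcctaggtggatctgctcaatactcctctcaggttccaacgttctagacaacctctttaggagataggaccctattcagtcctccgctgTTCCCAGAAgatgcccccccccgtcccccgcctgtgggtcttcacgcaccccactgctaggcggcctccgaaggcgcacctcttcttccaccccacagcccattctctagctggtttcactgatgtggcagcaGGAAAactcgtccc
Psmb9: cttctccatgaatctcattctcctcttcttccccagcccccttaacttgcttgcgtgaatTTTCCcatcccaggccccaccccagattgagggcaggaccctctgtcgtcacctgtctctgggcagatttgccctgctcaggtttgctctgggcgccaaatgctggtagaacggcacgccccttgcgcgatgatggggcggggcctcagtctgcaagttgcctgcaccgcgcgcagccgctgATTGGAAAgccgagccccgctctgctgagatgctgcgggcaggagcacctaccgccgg
Psme2: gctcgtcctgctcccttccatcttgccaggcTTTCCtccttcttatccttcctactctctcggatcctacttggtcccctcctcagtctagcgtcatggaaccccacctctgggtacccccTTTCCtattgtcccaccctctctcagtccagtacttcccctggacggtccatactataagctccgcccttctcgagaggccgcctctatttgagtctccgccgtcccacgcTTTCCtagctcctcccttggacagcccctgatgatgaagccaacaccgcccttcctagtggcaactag
Psme3: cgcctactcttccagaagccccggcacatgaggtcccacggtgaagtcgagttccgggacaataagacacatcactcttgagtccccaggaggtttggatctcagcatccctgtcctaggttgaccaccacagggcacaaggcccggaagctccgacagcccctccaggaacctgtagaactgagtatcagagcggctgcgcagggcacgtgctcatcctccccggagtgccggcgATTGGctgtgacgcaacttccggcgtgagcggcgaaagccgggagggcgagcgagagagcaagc
GGAAA was found at positions −248 and 37 from the start site of Psmb8, −190 and −5 of Psmb9, and −219, −129 and −18 of Psme2, counted at the match's first base. The Psme3 window held no GGAAA and 1 CCAAT match at −14, and Psmb8 was the only one of the 4 with TTCNNNGAA, at −97. A RefSeq window was at hand for 42 of the 50 genes. GGAAA, searched on both strands like the others, was in 52.4% of these 42 and in 61.3% of all 27025 promoters of the same length. CCAAT was in 35.7% of the 42 and 37.9% of all, and TTCNNNGAA in 7.14% of the 42 and 8.47% of all. The palindrome TGACGTCA, which CREB and ATF proteins bind, was in 0 of the 42 and in 1.88% of all. The AP-1 motif TGANTCA was in 4.76% of the 42 and 7.93% of all. TGACNNNGC, the core of the antioxidant element that NFE2-like factors bind, was in 14.3% of the 42 and 12.5% of all, and GAAA followed by NN and a further GAAA, the core bound by interferon regulatory factors, in 11.9% of the 42 and 3.49% of all. The core bound by interferon regulatory factors was in 5 genes, Psmb3, Psmd4, Psmd9, Psme1 and Psmg4, of which only Psme1 is an immune subunit. A match describes letters only and is not a bound site. The Psmb9 window shares 275 of its 300 bases with that of Tap1, the peptide transporter gene on the opposite strand, whose start site lies 226 bases away.

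Stimulation of vehicle-treated cells raised 23 of the 49 tested genes and lowered 5; the genes that fell were the immune catalytic subunits Psmb8, Psmb9 and Psmb10 and the regulatory particle chaperones Psmd5 and Psmd10. The PA28 genes Psme1, Psme2 and Psme3 rose, Psme3 by 2.42 on the log2 scale. Of all 14398 genes tested with edgeR at an adjusted p under 0.05, 39.8% were called in this comparison, 20.1% higher and 19.7% lower. The median log2 fold change was 0.46 over the 49 genes and −0.02 over all genes. Of the 28 calls, 17 held without each library in turn; those lost without at least 1 library were Psma4, Psmb2, Psmb9, Psmc2, Psmc4, Psmc6, Psmd1, Psmd2, Psmd5, Psmd10 and Psmd14. The calls depend on the scaling for 17 of the 28: when library totals replace the TMM scaling, the median of all genes shifts by −0.60, 6 of the 49 are called higher and 15 lower (11% and 37.8% of all genes), and the 11 calls shared with TMM, each in the same direction, are Psma5, Psmb7, Psmd11, Psme1, Psme2 and Psme3 higher and Psmb8, Psmb9, Psmb10, Psmd5 and Psmd10 lower. No gene was called in opposite directions by the 2 scalings. In limma on log2(TPM + 1), 6 of the 49 were also called higher and 15 lower, where 11.9% of all genes were higher and 32.3% lower. The same counts came with log2(TPM + 0.1), where these shares were 11.7% and 32.8%. The medians over the 49 genes were −0.07 and −0.12 in these limma fits. Of the 5 immune subunits, 2 rose and 3 fell, and of the 44 other tested genes 21 rose and 2 fell.

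In CsA-treated stimulated cells 12 of the 49 were called against vehicle, with 4 higher (Psmb8, Psmb9, Psmb10 and Psma1) and 8 lower (Psme2, Psme3, Psma5, Psmc5, Psmc6, Psmd3, Psmd7 and Psmd11). Of all genes tested, 23% were called, 10.3% higher and 12.7% lower, and the median log2 fold change was −0.24 over the 49 genes and 0.06 over all. Without CsA_PI 2, 9 of the 49 were called, all of them among the 12, with Psmc5, Psmc6 and Psmd3 no longer called, while 22.5% of the genes tested were called. With each library left out in turn, 7 of the 12 calls held throughout, the exceptions being Psma1, Psmc5, Psmc6, Psmd3 and Psmd11. With library totals, which shift the median of all genes by 0.34, 9 were higher and 4 lower (19.9% and 8.29% of all genes), and the 8 calls shared with TMM were Psma1, Psmb8, Psmb9 and Psmb10 higher and Psma5, Psmd7, Psme2 and Psme3 lower. Of the 5 immune subunits, 3 were higher and 1 lower, and of the 44 others 1 was higher and 7 lower. Both comparisons contain the ethanol_PI libraries, so their values for a gene are set side by side below and are not independent.

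Psmb8, the immune counterpart of Psmb5 with chymotrypsin-like activity, lies on chromosome 17 from 34197721 to 34201454 (mm10, plus strand, ENSMUSG00000024338). It had 395, 389 and 412 CPM in CsA_PI, 208, 182 and 190.3 CPM in ethanol_PI, 440.1, 480.0 and 515 CPM in CsA_US and 471, 391 and 600.2 CPM in ethanol_US. The 3 ethanol_PI libraries are the lowest of the 12 and overlap with no other group. The log2 fold change was −1.34 ± 0.18 for stimulation in vehicle (SE; adjusted p = 0.00011) and 1.05 ± 0.18 for CsA in stimulated cells (adjusted p = 0.00108). Both coding isoforms had the same order of groups: the one of 1628 bases had 167.9 to 235.9 TPM in CsA_PI, 78.3 to 80.7 TPM in ethanol_PI, 263 to 326 TPM in CsA_US and 234.5 to 381 TPM in ethanol_US.

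Psmb10, the immune counterpart of Psmb7 with trypsin-like activity, lies on chromosome 8 from 105935735 to 105938444 (minus strand, ENSMUSG00000031897). It had 72.9, 76.5 and 65.4 CPM in CsA_PI, 33.0, 29.7 and 31.2 CPM in ethanol_PI, 85.0, 108 and 110.4 CPM in CsA_US and 79.4, 77.0 and 105 CPM in ethanol_US. The ethanol_PI libraries again form the lowest group without overlap, and CsA_PI lies between them and the unstimulated libraries. Stimulation in vehicle gave −1.48 ± 0.17 (adjusted p = 4.49e-05) and CsA in stimulated cells 1.19 ± 0.17 (adjusted p = 0.000383).

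Psmb9, the immune counterpart of Psmb6, lies on chromosome 17 from 34181987 to 34187764 (minus strand, ENSMUSG00000096727), beside Psmb8 and Tap1. It had 162, 102 and 166 CPM in CsA_PI, 70.7, 63.3 and 56.9 CPM in ethanol_PI, 94.2, 108 and 91.2 CPM in CsA_US and 91.4, 103 and 94.1 CPM in ethanol_US. CsA_PI 1 and 3 lie above all 6 unstimulated libraries, CsA_PI 2 lies among them, and the ethanol_PI libraries are the lowest. Stimulation in vehicle gave −0.59 ± 0.19 (adjusted p = 0.0246) and CsA in stimulated cells 1.17 ± 0.19 (adjusted p = 0.000884). Stimulation with CsA gave 0.55 ± 0.19 (adjusted p = 0.0934) and, without CsA_PI 2, 0.73 ± 0.14 (adjusted p = 0.00162), so that Psmb9 then fell on stimulation in vehicle and rose on stimulation with CsA. The fall in vehicle was not called without ethanol_US 2 (−0.55, adjusted p = 0.0663), ethanol_PI 2 (−0.60, adjusted p = 0.0648) or ethanol_PI 3 (−0.53, adjusted p = 0.0934), nor with protein-coding transcripts only (−0.40, adjusted p = 0.162). The last of these was its highest adjusted p over all alternatives. Coding transcripts held as little as 51.2% of the Psmb9 counts in a library.

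**Figure D2:**
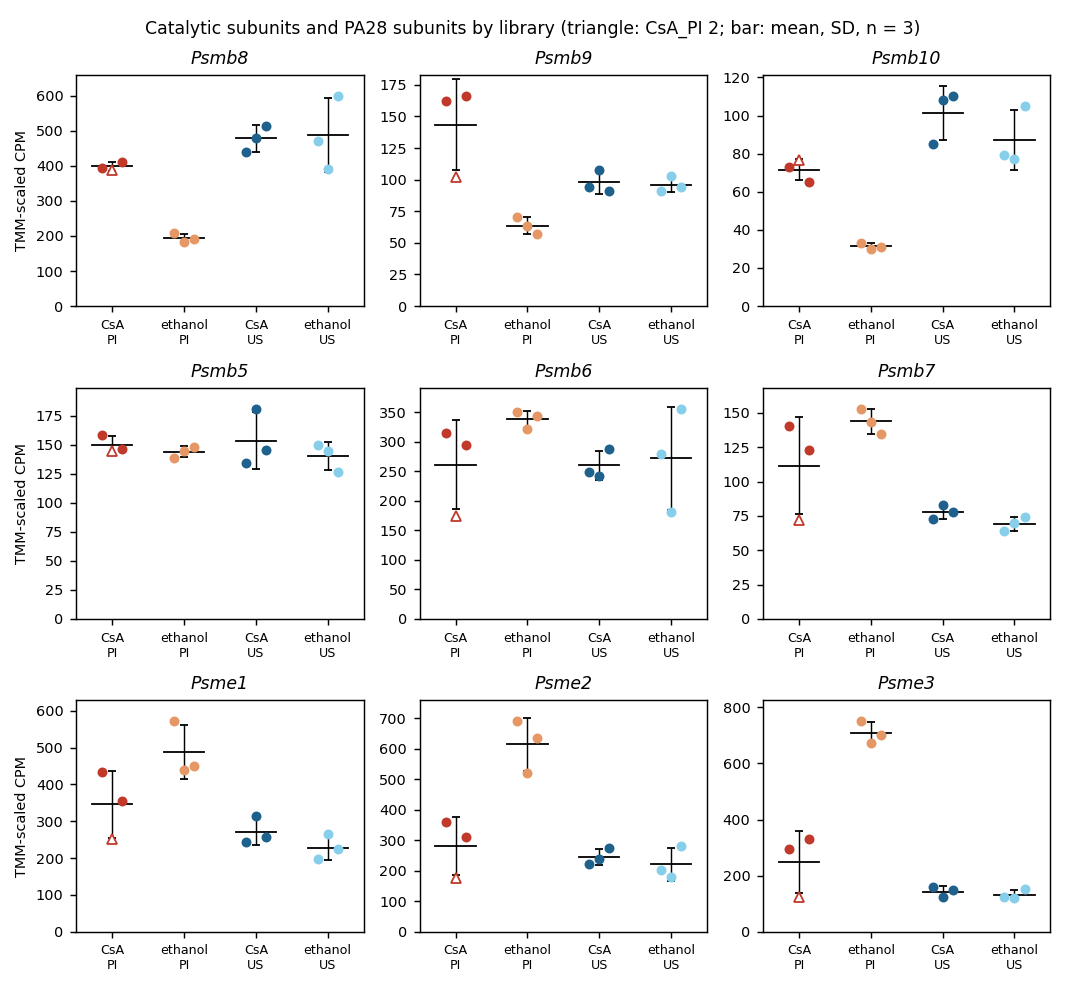
TMM-scaled CPM (y axis from 0) of 9 genes in each library, for CsA_PI, ethanol_PI, CsA_US and ethanol_US; horizontal bars are means with SD (n = 3) and the open triangle is CsA_PI 2. The ethanol_PI libraries are lowest for Psmb8, Psmb9 and Psmb10 and highest for Psme1, Psme2 and Psme3, and CsA_PI 2 lies near the unstimulated libraries for Psmb7, Psme1, Psme2 and Psme3.

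The constitutive catalytic subunits did not fall with their immune counterparts on this scale. Psmb7, on chromosome 2 from 38588036 to 38644087, had 140.2, 72.1 and 123 CPM in CsA_PI, 153, 144 and 135 CPM in ethanol_PI, 73.1, 82.6 and 77.6 CPM in CsA_US and 63.7, 69.5 and 73.9 CPM in ethanol_US, with all ethanol_PI libraries above all unstimulated ones. It rose on stimulation in vehicle (1.06 ± 0.21, adjusted p = 0.00173), and CsA in stimulated cells gave −0.37 ± 0.21 (adjusted p = 0.236), with CsA_PI 2 far below CsA_PI 1 and 3. Psmb6 averaged 261 ± 75.7 CPM in CsA_PI, 338 ± 14.5 in ethanol_PI, 260.0 ± 24.4 in CsA_US and 272 ± 87.6 CPM in ethanol_US, and no comparison called it (vehicle 0.32 ± 0.26; CsA in stimulated cells −0.37 ± 0.26). Psmb5 averaged 149.5 ± 7.84 CPM in CsA_PI, 144 ± 4.74 in ethanol_PI, 154 ± 24.5 in CsA_US and 140.1 ± 12.3 CPM in ethanol_US, with 0.04 ± 0.15 for stimulation in vehicle; with library totals this value is −0.57 (adjusted p = 0.00992), a fall. Whether Psmb5 held its level is therefore set by the scaling.

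A ratio taken within each library needs no scaling between libraries. The log2 TPM ratio of Psmb10 to Psmb7 was −1.14, −0.14 and −1.12 in CsA_PI, −2.48, −2.43 and −2.32 in ethanol_PI, −0.06, 0.19 and 0.27 in CsA_US and 0.14, −0.20 and 0.27 in ethanol_US. CsA_PI 2 lies with the unstimulated libraries and CsA_PI 1 and 3 lie between these and ethanol_PI. The difference was −2.48 for stimulation in vehicle, 1.61 for CsA in stimulated cells (1.28 without CsA_PI 2) and −0.93 for stimulation with CsA (−1.26 without CsA_PI 2). The ratio of Psmb8 to Psmb5 was 0.83, 0.96 and 1.06 in CsA_PI, 0.08, −0.17 and −0.15 in ethanol_PI, 1.23, 0.91 and 1.29 in CsA_US and 1.12, 0.95 and 1.76 in ethanol_US, which gave −1.36 for stimulation in vehicle, 1.03 for CsA in stimulated cells and −0.19 for stimulation with CsA. Here the CsA_PI and unstimulated libraries overlap. The ratio of Psmb9 to Psmb6 was −1.46, −1.46 and −1.39 in CsA_PI, −2.89, −2.91 and −3.03 in ethanol_PI, −2.10, −1.57 and −2.11 in CsA_US and −2.28, −1.46 and −2.37 in ethanol_US, which gave −0.91 for stimulation in vehicle, 1.51 for CsA in stimulated cells and 0.49 for stimulation with CsA. In this pair CsA_PI has the highest mean, with ethanol_US 2 at the level of CsA_PI 1 and 2, and CsA_PI 2 lies with its replicates. CsA_PI 2 (−1.46) also lies near CsA_US 2 (−1.57) and ethanol_US 2 (−1.46), each the highest of its group. In a two-sided exact permutation test, each of the 8 differences between groups without overlap reached p = 0.1, the smallest that 3 against 3 libraries allow (Benjamini-Hochberg 0.15 over the 12 tests), so the design cannot pass 0.05 here. For CsA in unstimulated cells the differences were 0.11 (Psmb9 over Psmb6), 0.06 (Psmb10 over Psmb7) and −0.13 (Psmb8 over Psmb5), with exact p = 0.6, 0.7 and 0.8, and for stimulation with CsA the exact p of Psmb8 over Psmb5 was 0.3.

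Summed, Psmb8, Psmb9 and Psmb10 made up 46.1 ± 3.93% of the TPM of the 6 catalytic genes in CsA_PI, 24.5 ± 0.678% in ethanol_PI, 48.5 ± 0.711% in CsA_US and 48.4 ± 1.92% in ethanol_US (SD, n = 3). The CsA_PI libraries stood at 42.6%, 50.4% and 45.3%, with CsA_PI 2 the highest, and the ethanol_PI libraries between 24.0% and 25.3%. All ethanol_PI libraries lie below all others.

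**Figure D3:**
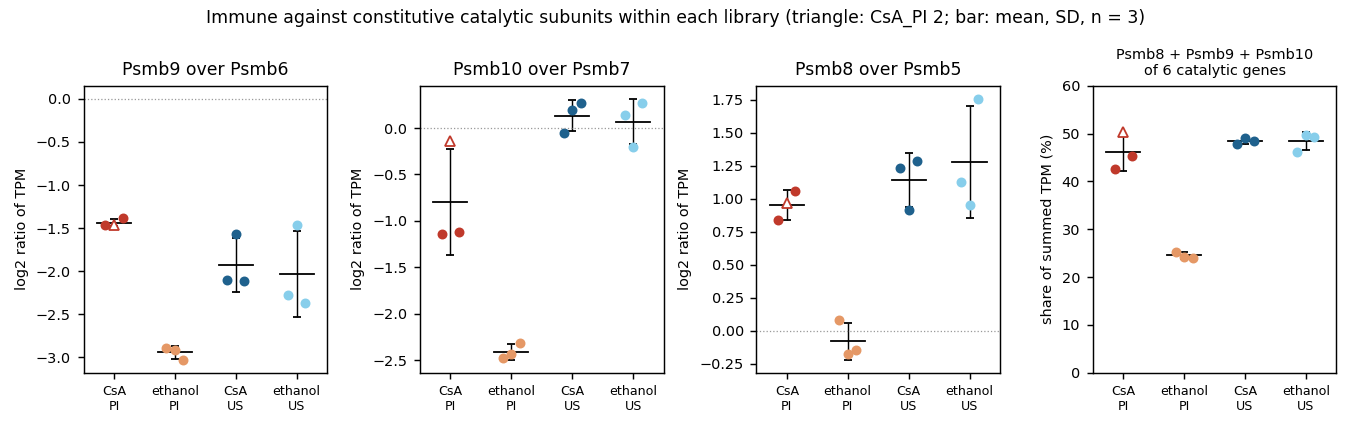
Log2 TPM ratio of each immune catalytic subunit to the constitutive one it replaces, and share of Psmb8, Psmb9 and Psmb10 in the summed TPM of the 6 catalytic genes (percent, y axis from 0), per library; bars are means with SD (n = 3) and the open triangle is CsA_PI 2. The ethanol_PI libraries are lowest in every panel, at a mean share of 24.5% beside 46.1% in CsA_PI.

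The PA28 genes went the other way from the immune catalytic subunits, although Psme1 and Psme2 are counted among the immune subunits. Psme2, on chromosome 14 from 55587441 to 55591113 (minus strand, ENSMUSG00000079197), had 359, 176 and 310.5 CPM in CsA_PI, 689, 519.6 and 634 CPM in ethanol_PI, 223, 238 and 275 CPM in CsA_US and 203, 179 and 282 CPM in ethanol_US. The ethanol_PI libraries are the highest, CsA_PI 1 and 3 lie between, and CsA_PI 2 is the lowest of the 12. Stimulation in vehicle gave 1.47 ± 0.26 (adjusted p = 0.000856) and CsA in stimulated cells −1.12 ± 0.26 (adjusted p = 0.00779), or −0.84 ± 0.21 without CsA_PI 2 (adjusted p = 0.0108). Psme1, its partner in the ring, on chromosome 14 from 55578123 to 55581529, had 432, 252 and 355 CPM in CsA_PI, 571, 441 and 450.0 CPM in ethanol_PI, 244, 313 and 257 CPM in CsA_US and 198, 264 and 224 CPM in ethanol_US. It rose on stimulation in vehicle (1.09 ± 0.22, adjusted p = 0.00179), and CsA in stimulated cells gave −0.49 ± 0.22 (adjusted p = 0.123), which did not pass the test, with all CsA_PI libraries below all ethanol_PI libraries. Reads can be shared between Psme2 and its near copy Psme2b, so both levels are uncertain to that extent; Psme2b averaged 49.3 ± 6.61 CPM in CsA_PI, 56.6 ± 5.98 in ethanol_PI, 75.9 ± 11.2 in CsA_US and 71.1 ± 16.5 CPM in ethanol_US.

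Psme3, on chromosome 11 from 101316213 to 101323537 (plus strand, ENSMUSG00000078652), encodes PA28 gamma, a nuclear cap that serves degradation without ubiquitin. It had 295, 123 and 330.3 CPM in CsA_PI, 750.3, 673 and 702 CPM in ethanol_PI, 158, 123 and 149 CPM in CsA_US and 123, 121 and 152 CPM in ethanol_US. The ethanol_PI libraries are far above the rest, CsA_PI 1 and 3 lie above every unstimulated library, and CsA_PI 2 is within their range. Stimulation in vehicle gave 2.42 ± 0.30 (adjusted p = 6.84e-05), the largest change of the 49, and CsA in stimulated cells −1.51 ± 0.29 (adjusted p = 0.00273), or −1.14 ± 0.17 without CsA_PI 2 (adjusted p = 0.000359). Stimulation with CsA gave 0.80 ± 0.29 (adjusted p = 0.106) and, without CsA_PI 2, 1.10 ± 0.16 (adjusted p = 0.000283). The other activator, Psme4, gave −0.20 ± 0.35 in vehicle and −0.15 ± 0.35 for CsA in stimulated cells. The inhibitor Psmf1 gave −0.37 ± 0.18 and 0.10 ± 0.18, and neither gene was called in either comparison.

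Among the structural subunits, stimulation in vehicle called 5 of 7 tested alpha subunits higher, 3 of 7 constitutive beta subunits, 4 of 6 base ATPases, 2 of 3 other base subunits and 6 of 8 lid subunits, and none of these lower. In the alpha ring Psma3 (0.79), Psma4 (0.70), Psma5, Psma6 (0.85) and Psma7 (0.86) rose, and Psma1 and Psma2 (0.55) were not called; with library totals Psma5 was the only one of these 5 still called. In the fit with a replicate block, Psma2 was called in vehicle (0.56, adjusted p = 0.0295, against 0.0521 without the block) and Psma7 for CsA in stimulated cells (−0.65, adjusted p = 0.0289, against 0.0516). Psma5 had 213, 122 and 218 CPM in CsA_PI, 338, 317 and 354 CPM in ethanol_PI, 129, 133 and 141 CPM in CsA_US and 128, 119.7 and 152 CPM in ethanol_US, with CsA_PI 2 within the unstimulated range. Its log2 fold change was 1.33 ± 0.21 in vehicle (adjusted p = 0.000363) and −0.87 ± 0.21 for CsA in stimulated cells (adjusted p = 0.00938). Psma1 of the same ring did not follow it: 236 ± 18.3 CPM in CsA_PI, 165 ± 8.13 in ethanol_PI, 195 ± 5.20 in CsA_US and 186 ± 22.9 CPM in ethanol_US gave −0.17 ± 0.14 in vehicle (adjusted p = 0.377) and 0.52 ± 0.14 for CsA in stimulated cells (adjusted p = 0.0219). That rise of Psma1 was not called without any 1 of the ethanol_PI libraries, CsA_PI 1 or CsA_PI 3 (0.48 to 0.55, adjusted p 0.0506 to 0.0937).

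Of the constitutive beta subunits without a catalytic site, Psmb2 (0.68) and Psmb4 (0.86) rose in vehicle, and Psmb1 (−0.19) and Psmb3 (−0.25) were not called. The call of Psmb2 ended without any 1 of 9 libraries, all but ethanol_US 3, CsA_PI 1 and CsA_PI 2 (adjusted p 0.0502 to 0.159). With library totals Psmb2 and Psmb4 were not called and Psmb1 and Psmb3 were lower (−0.80 and −0.86). None of the 7 was called for CsA in stimulated cells.

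In the base, the ATPases Psmc2 (0.64), Psmc4 (0.57), Psmc5 and Psmc6 (0.60) rose in vehicle and Psmc3 (0.26) was not called. The calls of Psmc2 and Psmc4 ended without any 1 of the ethanol_PI libraries, among others (adjusted p up to 0.114 and 0.152), and that of Psmc6 without ethanol_US 1. Psmc5 gave 0.89 ± 0.19 in vehicle and −0.58 ± 0.19 for CsA in stimulated cells (adjusted p = 0.0448), a call that ended without CsA_PI 2 (−0.37 ± 0.16, adjusted p = 0.131), with library totals, and without any other single library except CsA_PI 1 and ethanol_US 2 (adjusted p up to 0.153). Psmc1 gave 0.25 ± 0.22 and 0.06 ± 0.22 with no call. The scaffold subunit Psmd1 rose in vehicle (0.74 ± 0.19), and so did Psmd2 (0.67 ± 0.20), whereas the ubiquitin receptor Psmd4 gave 0.02 ± 0.16; with library totals Psmd4 gave −0.59 (adjusted p = 0.00799) and Psmd1 and Psmd2 were not called, nor were they called under TMM without ethanol_US 1, or, for Psmd2, without ethanol_US 2, ethanol_PI 1 or ethanol_PI 3 (adjusted p 0.055 to 0.0856). In the lid, Psmd3 (0.80), Psmd7, Psmd8 (0.65), Psmd11, Psmd12 (1.09) and the deubiquitinase Psmd14 (0.64) rose in vehicle, of which library totals called Psmd11 alone and Psmd14 was not called without any 1 of the ethanol_PI libraries, ethanol_US 1 or ethanol_US 2, and Psmd6 (0.29) was not called. Psmd11, which clamps the regulatory particle to the core, rose in vehicle (1.19 ± 0.23, adjusted p = 0.00151) and was lower with CsA in stimulated cells (−0.82 ± 0.23, adjusted p = 0.0211). Leaving out ethanol_PI 1 or 3 ended this last call (adjusted p = 0.0746 and 0.0551), as did library totals (adjusted p = 0.0558). Psmd13 had the lowest change of the lid in vehicle (−0.27 ± 0.14, not called).

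Psmd7, the lid partner of the deubiquitinase Psmd14, lies on chromosome 8 from 107580381 to 107588464. It had 119, 109 and 131 CPM in CsA_PI, 223, 233 and 227 CPM in ethanol_PI, 128, 121 and 136 CPM in CsA_US and 122, 112 and 119 CPM in ethanol_US. CsA_PI 1 and 3 were within the range of the unstimulated libraries and CsA_PI 2 just below it. It rose in vehicle (0.96 ± 0.14, adjusted p = 0.000171; 0.35 with library totals, adjusted p = 0.0564), was lower with CsA in stimulated cells (−0.93 ± 0.14, adjusted p = 0.000398) and gave −0.11 ± 0.13 for stimulation with CsA (adjusted p = 0.666).

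**Figure D4:**
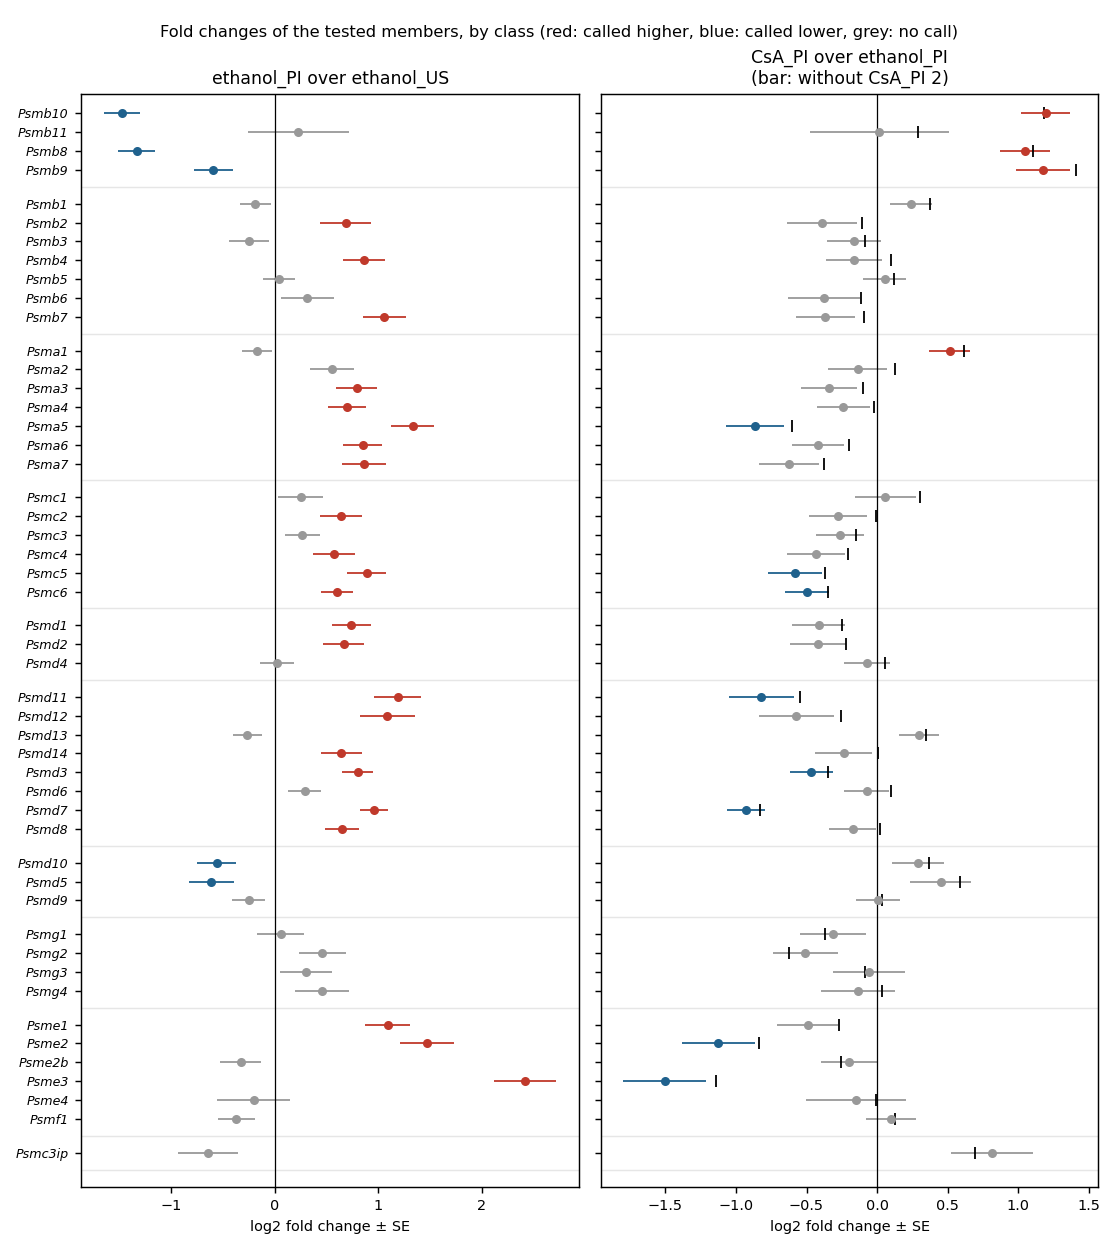
Log2 fold change with SE (x axis; the panels have their own scales) of the 49 tested genes by structural class, for ethanol_PI over ethanol_US (left) and CsA_PI over ethanol_PI (right); red is called higher, blue called lower, grey not called, and the black bar on the right is the value without CsA_PI 2. Psmb8, Psmb9 and Psmb10 are called lower on the left and higher on the right, and Psme2 and Psme3 the reverse.

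None of the 7 assembly factors in the symbol rule was called higher on stimulation in vehicle. The shares of all genes were 20.1% higher and 19.7% lower. Pomp, a core assembly factor outside the symbol rule, was called higher under TMM, though not with library totals. Of the regulatory particle chaperones, Psmd5 had 86.4, 73.4 and 97.8 CPM in CsA_PI, 64.0, 59.9 and 64.8 CPM in ethanol_PI, 99.4, 78.3 and 98.4 CPM in CsA_US and 92.5, 67.9 and 128 CPM in ethanol_US, with ethanol_PI the lowest group. It fell in vehicle (−0.61 ± 0.22, adjusted p = 0.0381), as did Psmd10 (−0.56 ± 0.19, adjusted p = 0.029); Psmd5 was not called without any 1 of the ethanol_PI libraries, ethanol_US 1 or ethanol_US 3 (adjusted p 0.0502 to 0.136), nor Psmd10 without ethanol_PI 1, ethanol_PI 3 or ethanol_US 3 (adjusted p 0.0648 to 0.118). Psmd9 gave −0.25 ± 0.16 with no call. None of the 4 core chaperones was called in any of the 5 comparisons: in vehicle, Psmg1 gave 0.06 ± 0.23, Psmg2 0.46 ± 0.23, Psmg3 0.30 ± 0.25 and Psmg4 0.45 ± 0.26. Their levels were 7.55 to 19.4 CPM over the 12 libraries. Psmb11 (0.22 ± 0.49), near 1 CPM, and Psmc3ip (−0.65 ± 0.29) were not called either.

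With CsA, stimulation called 0 of the 49 genes in edgeR over all 12 libraries, where 5.28% of all genes were called (3.9% higher and 1.38% lower). An unadjusted p under 0.05 in edgeR was found for 12 of the 49 and for 3702 of all 14398 genes. DESeq2 called 6, with 4 higher and 2 lower, where it called 14.1% of all genes, and limma on log2 TPM called 0. Without CsA_PI 2, 18 were called, 16 higher and 2 lower (Psmb10 and Psme2b), beside 28.7% of all genes tested (14.1% higher, 14.6% lower). Without that library 24 of the 49 were called higher in vehicle, where 43.7% of all genes were called and 20.8% higher. Of these 24, 15 were also called higher on stimulation with CsA, and Psmb9 was called lower in vehicle and higher with CsA. The share of all genes called in both was not counted. Library totals without CsA_PI 2 gave 16 calls, 5 higher and 11 lower, against 16 higher and 2 lower under TMM. In that fit with library totals, 8.04% of all genes were called higher and 24.5% lower. On TMM-scaled CPM, CsA_PI 1 and CsA_PI 3 each lay above all 6 unstimulated libraries for 22 of the 23 genes that rose in vehicle. Psmd7 was the exception in both. CsA_PI 2 lay above the 6 unstimulated libraries for 0, within their range for 17 and below it for 6. Of all 2892 genes that rose in vehicle, 68% lay above the 6 libraries in CsA_PI 1, 18.3% in CsA_PI 2 and 70.3% in CsA_PI 3. On TPM, CsA_PI 1 lay above the 6 libraries only for Psmb4, Psmb7, Psmd8, Psme1 and Psme3 of the 23 genes. CsA_PI 2 did so for Psmb4, Psmd3 and Psmd8. CsA_PI 3 did so for Psma3, Psma4, Psma5, Psma6, Psmb4, Psmb7, Psmc2, Psmd1, Psmd2, Psmd8, Psmd11, Psmd12 and Psme3. The TPM share over all genes was not counted.

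**Figure D5:**
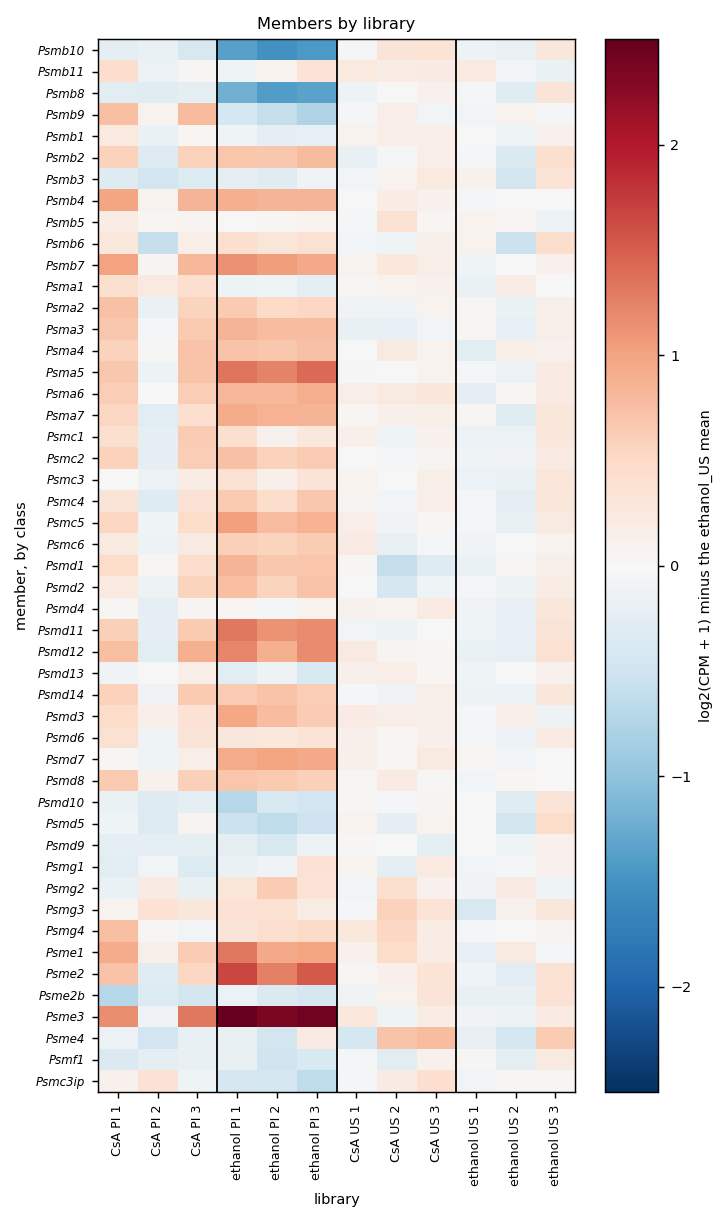
Log2(CPM + 1) of the 49 tested genes in each of the 12 libraries, minus the gene's mean in ethanol_US (red higher, blue lower); columns run CsA_PI, ethanol_PI, CsA_US and ethanol_US, and rows are ordered by structural class. On this CPM scale CsA_PI 2 lies above all unstimulated libraries for 0 of the 23 genes that rose in vehicle. CsA_PI 1 and 3 do so for 22 each, and for fewer on TPM.

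The interaction, which is the stimulation effect with CsA minus that in vehicle, was called for 6 of the 49 genes, with 9.72% of all genes called (3.54% higher and 6.19% lower). It was 1.07 ± 0.25 for Psmb8 (adjusted p = 0.0171), 1.15 ± 0.27 for Psmb9 (adjusted p = 0.0182) and 0.98 ± 0.24 for Psmb10 (adjusted p = 0.0233). It was −1.06 ± 0.19 for Psmd7 (adjusted p = 0.00463), −1.27 ± 0.36 for Psme2 (adjusted p = 0.0454) and −1.62 ± 0.41 for Psme3 (adjusted p = 0.0264). The same 6 were called without CsA_PI 2 (12.4% of all genes), and all but Psme2 with library totals (10.3% of all genes). In limma on log2(TPM + 1), Psmd7 (−0.68, adjusted p = 0.084) and Psme2 (−0.93, adjusted p = 0.0734) were not called, nor were they on log2(TPM + 0.1). With protein-coding transcripts only, Psmb9 was not called in edgeR (0.84, adjusted p = 0.109). Leaving out ethanol_PI 1 left 3 calls (Psmb8, Psmb9 and Psmd7), ethanol_PI 2 left 2 (Psmb9 and Psmd7) and ethanol_PI 3 left 2 (Psmb8 and Psmd7). Psme3 was also not called without ethanol_US 1 or 2 or CsA_US 1 or 3, and Psme2 was called only without ethanol_US 3, CsA_PI 1 or CsA_PI 2 among the 12 libraries left out in turn. None of the 43 other tested genes was called in edgeR, although with the replicate block Psma5 was (−0.91, adjusted p = 0.0445, against 0.0805). An unadjusted p under 0.05 in edgeR was found for 15 of the 49 and for 3458 of all 14398 genes, and DESeq2 called 8 (14.8% of all genes).

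In unstimulated cells CsA called 0 of the 49 genes in edgeR, 0 in DESeq2 and 0 in limma, with 0 at an unadjusted p under 0.05 in edgeR and DESeq2 and 1 in limma on log2(TPM + 1). Of all genes, 0.00695% were called in edgeR (0% higher, 0.00695% lower) and 0.139% in DESeq2. An unadjusted p under 0.05 was found for 465 of 14398 genes in edgeR, 533 of 14347 in DESeq2 and 552 of 14398 in limma on log2(TPM + 1). The log2 fold changes ran from −0.28 (Psmd1, SE 0.19) to 0.39 (Psmb11, SE 0.47). The immune subunits gave −0.03 ± 0.17 (Psmb8), 0.03 ± 0.19 (Psmb9), 0.21 ± 0.17 (Psmb10), 0.25 ± 0.21 (Psme1) and 0.15 ± 0.26 (Psme2).

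Of 38 partner genes outside the symbol rule, 37 had a value. In vehicle, 16 of these rose and 3 fell on stimulation, where 20.1% of all genes rose and 19.7% fell. With CsA in stimulated cells 2 were higher and 6 lower, where 10.3% of all genes were higher and 12.7% lower. Of these calls, 10 of 19 in vehicle and 3 of 8 for CsA in stimulated cells held without each library in turn. Among proteasome partners, the ubiquitin shuttle Rad23b had 71.3, 52.9 and 79.4 CPM in CsA_PI, 150.0, 147 and 149 CPM in ethanol_PI, 68.6, 51.7 and 48.1 CPM in CsA_US and 56.8, 59.2 and 45.6 CPM in ethanol_US, with ethanol_PI apart from all others. It gave 1.46 ± 0.19 in vehicle (adjusted p = 0.000111) and −1.13 ± 0.19 for CsA in stimulated cells (adjusted p = 0.00118). The shuttle Ubqln4 gave 1.25 ± 0.14 and −1.17 ± 0.14, the regulatory particle's thioredoxin-like partner Txnl1 1.26 ± 0.19 and −0.72 ± 0.18, and all 3 genes were called in both, also with library totals and without CsA_PI 2. The lower level of Txnl1 with CsA was not called without ethanol_PI 1 (adjusted p = 0.0601). The ubiquitin-activating enzyme Uba6 rose on stimulation both in vehicle (1.24 ± 0.27) and with CsA (1.24 ± 0.27, adjusted p = 0.0395; 0.94 with library totals, adjusted p = 0.0614). The call with CsA ended without any 1 of 10 libraries, all but ethanol_US 2 and CsA_PI 2 (adjusted p up to 0.206). The deubiquitinase Uchl5 (−0.61 ± 0.17) and the ligase Ube3c (−0.67 ± 0.22, adjusted p = 0.0741 without CsA_PI 2) were lower with CsA in stimulated cells, neither with library totals. Uchl5 was also not called without ethanol_PI 1 or 3 (adjusted p = 0.0776 and 0.0686), nor Ube3c with the replicate block (adjusted p = 0.0576) or without any 1 of 10 libraries, all but CsA_US 1 and CsA_PI 1 (adjusted p up to 0.139). The core assembly factor Pomp and the ubiquitin receptor Adrm1 rose in vehicle (0.84 ± 0.30 and 0.69 ± 0.21), but with library totals neither was called. Pomp was also not called without any 1 of the ethanol_PI or CsA_US libraries, ethanol_US 1 or ethanol_US 2 (adjusted p 0.0556 to 0.134), nor Adrm1 without ethanol_US 1, ethanol_US 2, ethanol_PI 1 or ethanol_PI 3 (adjusted p 0.0581 to 0.076).

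Nfe2l1 averaged 101 ± 11.5 CPM in CsA_PI, 182 ± 19.9 CPM in ethanol_PI, 71.2 ± 12.3 CPM in CsA_US and 72.0 ± 19.7 CPM in ethanol_US. It rose in vehicle (1.33 ± 0.21, adjusted p = 0.000399) and was lower with CsA in stimulated cells (−0.85 ± 0.21, adjusted p = 0.0115; 0.113 with library totals; not called without ethanol_PI 2), while its relative Nfe2l2 gave 0.35 ± 0.19 and 0.10 ± 0.19 with no call. The peptide transporter gene Tap1 did not share the calls of its neighbour Psmb9 for stimulation in vehicle or for CsA in stimulated cells. It averaged 559 ± 80.7 CPM in CsA_PI, 572 ± 29.7 CPM in ethanol_PI, 420.2 ± 32.9 CPM in CsA_US and 477 ± 19.2 CPM in ethanol_US, with 0.26 ± 0.16 in vehicle and −0.03 ± 0.16 for CsA in stimulated cells, neither called. Its ethanol_PI libraries still lay above its ethanol_US libraries without overlap. As with CsA_PI 1 and 3 for Psmb9, every CsA_PI library of Tap1 lay above every unstimulated one. Its partner Tap2 fell in vehicle (−0.61 ± 0.17) and was higher with CsA in stimulated cells (0.52 ± 0.17, adjusted p = 0.0497); the first call ended without ethanol_PI 2, and the second without any 1 of the ethanol_PI libraries, CsA_PI 3, CsA_US 3 or ethanol_US 2. Nlrc5, an activator of class I antigen presentation genes, rose in vehicle (1.14 ± 0.20) and with CsA (0.97 ± 0.20, adjusted p = 0.0395). Irf1 gave 0.68 ± 0.30 in vehicle with no call and rose with CsA (1.47 ± 0.30, adjusted p = 0.0395); with library totals neither Nlrc5 nor Irf1 was called with CsA, and neither was called without any 1 of 9 libraries, all but ethanol_US 2, ethanol_US 3 and CsA_PI 2 (adjusted p up to 0.2). Irf8, which B cells and myeloid cells also express, rose in vehicle (4.39 ± 0.98). It had 1248, 208 and 1562 CPM in CsA_PI and 1764, 2918 and 1781 CPM in ethanol_PI. Unstimulated libraries had 40.4, 161 and 42.1 CPM in CsA_US and 48.3, 221 and 39.5 CPM in ethanol_US, with replicate 2 the highest of both groups. CsA_PI 1 and 3 thus lay above all unstimulated libraries and CsA_PI 2 within their range.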

How the data were processed

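The authors deposited, per the file headers, tables with a length, an effective length, an estimated count and a TPM for each transcript of each library. The submitters' processing notes name cutadapt (a read trimmer), kallisto (a transcript quantifier) and the build mm10; versions and the annotation are not given in the sources used here. Of 109617 transcripts, 108214 matched GENCODE vM21 (mm10), and the 1403 unmatched held 0.494 to 0.628% of the estimated counts. The deposited estimated counts and TPM were summed per gene, and the sums of counts were rounded to whole numbers. Deposited and annotated transcript lengths were equal for 92.5%. kallisto shares ambiguous reads between transcripts, so near copies such as Psme2 and Psme2b share uncertainty, and reads carry no molecular identifiers.

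Genes with at least 10 counts in enough libraries (total at least 15, filterByExpr) were tested over all 12 libraries with edgeR 4.0.16 (R 4.3.3). The fit used TMM scaling, the quasi-likelihood test and Benjamini-Hochberg adjustment over 14398 genes at 0.05. It was also run on simulated counts, with equally many genes raised and lowered in ethanol_PI, for stimulation in vehicle only. That simulation did not test the choice of scaling or the other comparisons. CPM are TMM-scaled. TPM ratios were tested with the exact permutation test of scipy 1.17.1. Alternatives were RLE scaling, library totals, no count filter, DESeq2 1.42.0, limma 3.58.1 on log2(TPM + 1) and log2(TPM + 0.1), coding transcripts only, pseudogene counts added, only the groups compared, a replicate block and each library left out; the block or library totals combined with leaving out CsA_PI 2 were chosen after seeing the data. The deviations of libraries with the same replicate number in the labels were correlated in each of the 3 pairs, at 0.143 to 0.319 for stimulation in vehicle, 0.107 to 0.208 for CsA in stimulated cells and 0.196 to 0.325 for CsA in unstimulated cells, which was taken as pairing, but at 0.0333 to 0.123 for stimulation with CsA, which was not. The main edgeR fit and the permutation tests held no replicate block, so they did not use this pairing. Genes named with values are the immune and constitutive catalytic subunits, the activators, inhibitor and assembly factors, the 6 largest called changes per comparison, the highest and lowest gene of each class in stimulation in vehicle and CsA in stimulated cells, the 8 largest called changes among the partners in these comparisons, and Pomp, Adrm1, Nfe2l1, Nfe2l2, Tap1, Irf1 and Nlrc5 (results of some items are not reported here); the other structural subunits were named after their values were seen, so that each gene is accounted for. The members and lists were chosen with earlier results of these data known. Symbols, transcripts and promoter windows are from GENCODE vM21 and RefSeq (GRCm38.p6).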

Additional observations from a re-analysis of the deposited data

Results flagged for a closer look

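For 6 genes the effect of stimulation differed between CsA-treated and vehicle-treated cells by the interaction test in edgeR. The difference, in log2 units as the effect with CsA minus the effect in vehicle, was 1.07 for Psmb8, 1.15 for Psmb9, 0.98 for Psmb10, −1.06 for Psmd7, −1.27 for Psme2 and −1.62 for Psme3. Psmb8 and Psmb10 fell in vehicle, and Psme2, Psme3 and Psmd7 rose there.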

How the results depend on the processing

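Counts of called genes in either direction moved by no more than 1.5 times in 110 of 119 values, which include counts that stayed at 0. These counts do not show direction. For stimulation in vehicle the main fit gave 23 higher and 5 lower. Library totals and both limma fits gave 6 higher and 15 lower. CsA in stimulated cells gave 7 calls without ethanol_PI 1 or 3. Stimulation with CsA gave 6 in DESeq2, 18 without CsA_PI 2, 20 with the replicate block without CsA_PI 2 and 16 with library totals without CsA_PI 2. Over all genes these fits called 2022 of 14347, 4321 of 15057, 4831 of 15057 and 4906 of 15057, in the same order. The interaction gave 3 without ethanol_PI 1 and 2 without ethanol_PI 2 or 3. With each library left out in turn, counts ran 19 to 29 for stimulation in vehicle, 7 to 13 for CsA in stimulated cells, 0 to 0 for CsA in unstimulated cells, 0 to 18 for stimulation with CsA and 2 to 6 for the interaction. The counts over all genes ran 4511 of 15082 to 6581 of 15057 for stimulation in vehicle. They ran 2233 of 15082 to 3393 of 15057 for CsA in stimulated cells and 0 of 14688 to 7 of 15057 for CsA in unstimulated cells. Stimulation with CsA ran from 0 of 14683 to 4321 of 15057 genes, and the interaction from 787 of 14688 to 1865 of 15057. The causes were not tested.

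The ratio of Psmb10 to Psmb7 ran 1.28 to 1.78 for CsA in stimulated cells, −0.07 to 0.16 in unstimulated cells, −2.62 to −2.38 for stimulation in vehicle and −1.26 to −0.76 with CsA. That of Psmb8 to Psmb5 ran 0.98 to 1.11, −0.30 to 0.11, −1.52 to −1.12 and −0.31 to −0.12 in the same order, and that of Psmb9 to Psmb6 1.47 to 1.53, −0.07 to 0.40, −1.08 to −0.62 and 0.40 to 0.67. For CsA in unstimulated cells the sign turned: Psmb9 over Psmb6 was −0.0722, −0.0125 and −0.0589 without CsA_US 2, ethanol_US 1 and ethanol_US 3, Psmb10 over Psmb7 −0.00169 and −0.0714 without CsA_US 3 and ethanol_US 2, and Psmb8 over Psmb5 0.105 without ethanol_US 3.

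For stimulation in vehicle, Psmb5 and Psmd4 turned to −0.57 and −0.59 with library totals (also without CsA_PI 2), to −0.53 and −0.56 in limma on log2(TPM + 1), and to −0.53 and −0.57 on log2(TPM + 0.1). The replicate block called Psma2 in vehicle (0.56, adjusted p = 0.0295 in edgeR), Psma7 for CsA in stimulated cells (−0.65, 0.0289) and Psma5 for the interaction (−0.91, 0.0445), and changed no other call among the 49 genes. Psma8 did not pass the count filter, and Psmb11 was near 1 CPM.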
